A study of Mus musculus with 8 samples.

Results

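The genes described here encode proteins of fatty acid oxidation and ketone body metabolism in mouse hepatocytes. The set of 36 was chosen by gene symbol from the 17276 genes in the files, and all 36 were found. They comprise 3 mitochondrial carnitine acyltransferases, 11 enzymes of mitochondrial beta-oxidation, 3 proteins that carry electrons away from the dehydrogenases, 7 peroxisomal enzymes, 4 long-chain acyl-CoA synthetases, 4 acyl-CoA thioesterases, 1 ketone body enzyme and 3 proteins of fatty acid uptake, binding and storage. RNA was sequenced from hepatocytes of wild-type male C57BL/6N mice aged 6 to 8 weeks, with 4 libraries from cells kept static and 4 from cells under shear stress, the drag of moving fluid on the cell surface. The strength and length of the stress and the origin of the replicates (separate cultures or animals) are not given in the labels, so p-values measure only the spread between these libraries, which may be technical.

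As background, a fatty acid is first activated to an acyl-CoA by a synthetase. Long chains enter the mitochondrion as carnitine esters, made by CPT1 at the outer membrane and turned back into acyl-CoA by CPT2 inside. A dehydrogenase, a hydratase, a second dehydrogenase and a thiolase then shorten the chain in repeated cycles, and hepatocytes turn much of the acetyl-CoA into ketone bodies during fasting. Peroxisomes shorten very long and branched chains and the side chains of bile acid precursors by a parallel set of enzymes. Thioesterases split acyl-CoA back into free fatty acid, and droplets store what is not burned.

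Most members stood somewhat lower under shear stress. The acyl-CoA oxidase gene Acox2 rose, and Cpt2, for an inner membrane carnitine acyltransferase, was higher in all 4 pairs of libraries but passed the test only in some fits. Of the 35 members with enough counts to be tested (all but Acot3), 10 were lower, 1 was higher and 24 were not called, by the edgeR quasi-likelihood test with Benjamini-Hochberg adjusted p below 0.05 over all 11747 tested genes. Among all tested genes, 23.7% were lower and 24.9% higher, against 28.6% and 2.86% of the members. The median log2 fold change of shear stress over static was -0.39 for the members and -0.01 for all tested genes. It was below 0 for 31 of the 35 members (88.6%), against 50.5% of all tested genes. The libraries of both groups failed to overlap for 7 of the 35 (20.0%), against 45.3% of all tested genes. Most hepatocyte markers moved the same way: 6 of 9 fell and 3 were not called, with a median log2 fold change of -0.55. Among those not called, Hnf4a was at 0.13. With library totals, 1 of the 9 was called lower and their median was -0.33. The markers' sum was 57954 to 71775 TPM in static and 43610 to 61508 TPM in shear stress libraries. Alb made up most of it, with means of 42854 and 33898 TPM. Lymphocyte markers, 4 of the 6 listed being in the files, summed to 11.4 to 15.6 TPM and 0.14 to 1.25 TPM. Nearly all of this was Cd79b (means of 10.3 and 0.275 TPM) and Cd79a (3.295 and 0.2525 TPM). Ptprc (0.13 and 0.005 TPM) and Ms4a1 (0 and 0.0075 TPM) had too few counts to be tested. Cholangiocyte markers, summed, were higher under shear stress in all 4 numbers, at 1317, 100.2, 634 and 500.4 TPM in static and 1970, 263, 782 and 919 TPM in stressed libraries, and 1 of 4 tested was called higher (3 with the block). The part of these markers in the members' changes was not tested, and in bulk RNA, fewer cells of a type and less RNA per cell cannot be told apart.

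The replicate numbers of the labels were shared by both groups, and libraries with the same number deviated together from their group means (r between 0.467 and 0.679 over 8446 genes), so that the numbers pair the libraries. With the number as a block in the fit, 24 of the 35 members were lower and 2 higher, against 31.0% and 30.1% of all tested genes (61.1% in either direction), where the unblocked fit called 48.6%. The members called by the unblocked fit, 11 in all, were also called with the block. Comparing within numbers, 23 members were lower under shear stress in all 4 pairs, 2 (Acox2 and Cpt2) were higher in all 4, and 10 were mixed. The same count over all tested genes is not given here. These numbers therefore have no baseline and do not show a trait particular to the members. The direction of small changes depends on the scaling of the libraries. With library totals in place of trimmed mean (TMM) factors, 4 members were lower (Etfa, Etfdh, Ehhadh and Acot4) and 2 higher (Acox2 and Cpt2). Of all 11747 tested genes, 1539 were lower and 4157 higher with library totals. The members' median was then -0.16 and that of all tested genes was 0.22.

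**Figure D1:**
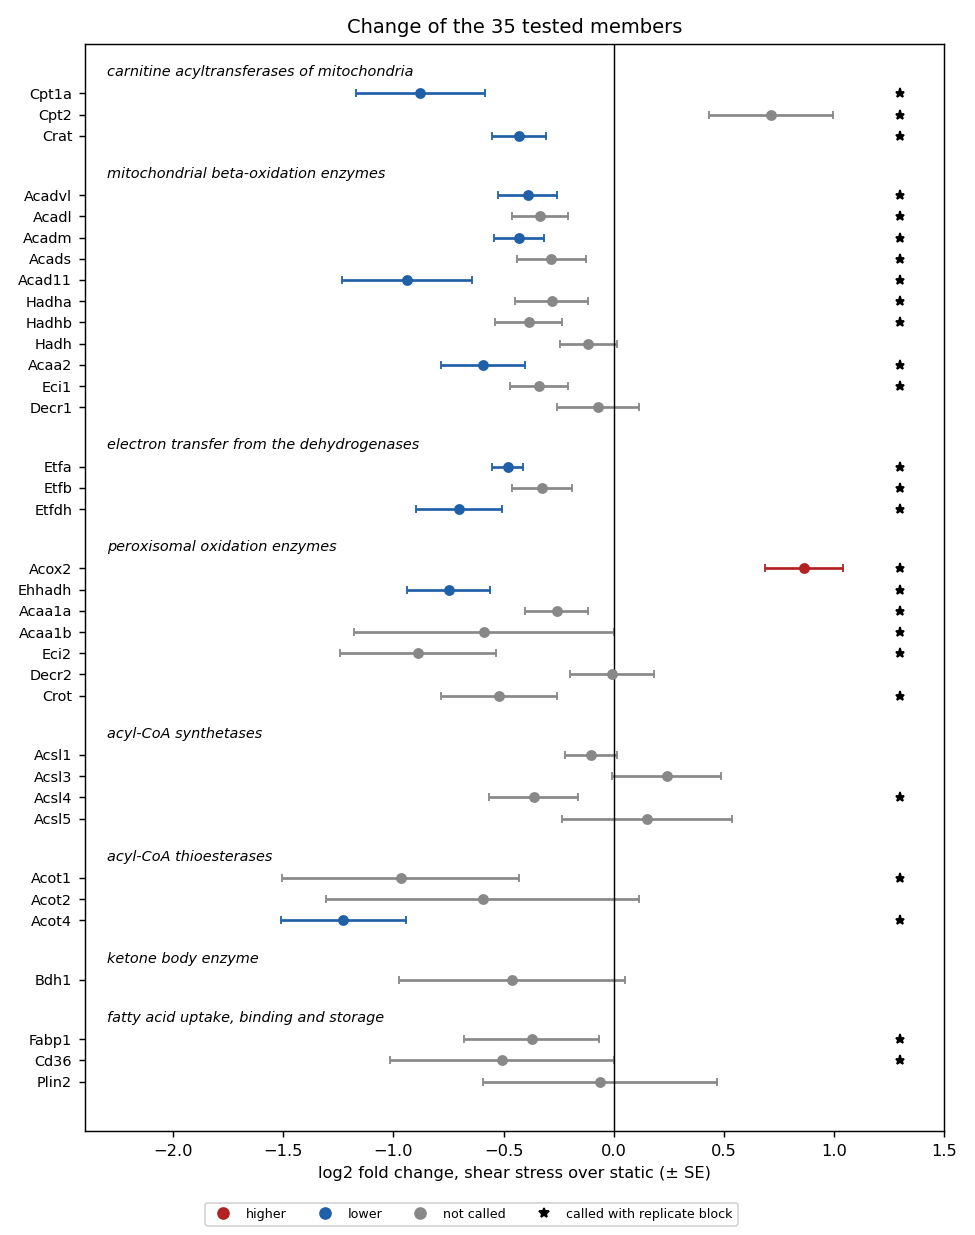
Log2 fold change of shear stress over static for each of the 35 tested members, with standard error bars, arranged by role. Blue marks the 10 lower members, red the 1 higher member and grey those not called, and a star marks each of the 26 members called with the replicate number as a block.

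Below, levels in libraries are normalised CPM (counts scaled to library size with TMM factors), listed in the order of replicate numbers 1 to 4, and group values are means ± SD (n = 4). Levels of different genes are compared only in TPM, which accounts for transcript length. Changes are log2 fold changes ± standard error with adjusted p from the same edgeR test, and gene positions are from RefSeq on GRCm38.p6. Fits that left out a library were made without the block, so a call lost there does not speak of the blocked fit.

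The pair of enzymes that shuttle acyl groups through the mitochondrial membranes moved apart. Cpt1a (Gene ID 12894, chromosome 19, 3322326 to 3385735) encodes the liver form of the outer membrane enzyme, the rate-controlling step of mitochondrial fatty acid oxidation. Its static libraries held 100.4, 51.7, 80.8 and 89.4 CPM and its shear stress libraries 45.7, 24.6, 65.3 and 39.8 CPM. Each number was lower under shear stress, but the static library of number 2 lay below the shear stress library of number 3, so the groups overlapped. The means were 80.6 ± 20.9 and 43.8 ± 16.8 CPM, a 1.84-fold fall (-0.88 ± 0.29, adjusted p = 0.0334). This call was lost on removal of any of static libraries 1, 3 and 4 or stressed libraries 1, 2 and 4 (adjusted p up to 0.0815), and with the block the adjusted p was 0.000564.

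Cpt2 (Gene ID 12896, chromosome 4, 107903982 to 107923589), the inner membrane partner, stood at 27.3, 17.1, 42.3 and 43.1 CPM in static and at 48.0, 41.4, 66.0 and 57.0 CPM in shear stress libraries. All 4 numbers were higher under shear stress, yet the groups overlapped by a narrow margin. The change of 0.71 ± 0.28 was not called (adjusted p = 0.062), whereas it was called with the block (0.77, adjusted p = 0.000751), with library totals (adjusted p = 0.0138), with DESeq2 (adjusted p = 0.034) and on removal of static library 3 or 4. In TPM, the ratio of Cpt1a to Cpt2 was 1.89, 1.56, 0.983 and 1.07 in static libraries and 0.490, 0.307, 0.509 and 0.360 in shear stress libraries. Cpt1a was thus the more abundant transcript in 3 of 4 static libraries and the less abundant in every shear stress library. This ratio, like that of Acox2 to Ehhadh below, was chosen after the values were seen and carries no test. Crat encodes the carnitine acyltransferase for short chains. It was at 37.6, 40.0, 28.1 and 37.1 CPM in static and at 26.5, 24.6, 27.1 and 27.7 CPM in shear stress libraries, with no overlap. The fall was 1.35-fold (-0.43 ± 0.12, adjusted p = 0.0162). The 3' ends of Crat and the neighbouring gene Dolpp1 overlap by 54 bases in RefSeq.

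In the beta-oxidation spiral, 4 of 11 members fell and 7 were not called, and with the block 9 fell. The acyl-CoA dehydrogenases start each cycle and differ in the chain length they prefer. Acadm, the medium-chain enzyme (Gene ID 11364, chromosome 3, 153922353 to 153944643), was at 198, 154, 165 and 196 CPM in static and at 144, 114, 132 and 139 CPM in shear stress libraries. Every static library lay above every shear stress library, and the 1.35-fold fall (-0.43 ± 0.12, adjusted p = 0.0123) held in all 8 fits that left out a library. Acadvl, for very long chains, was at 178, 146, 213 and 168 CPM in static and at 139, 114, 152 and 132 CPM under stress. The groups overlapped between static number 2 and stressed number 3. It fell 1.31-fold (-0.39 ± 0.13, adjusted p = 0.0341), a call lost on removal of static library 1 or 3 or of stressed library 1, 2 or 4 (adjusted p up to 0.0899). With the block its adjusted p was 0.000925.

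Acadl, for long chains, was at 124 ± 10.7 and 98.3 ± 15.7 CPM with groups that did not overlap, but its adjusted p was 0.0516, and 0.0121 with the block. Acads, for short chains, was at 91.7 ± 19.1 and 75.3 ± 6.52 CPM (adjusted p = 0.156, and 0.0446 with the block). Its static library of number 2 held 63.1 CPM while the other 3 static libraries held between 100.1 and 102 CPM, and without that library its adjusted p was 0.00673. The 4 chain-length classes thus had fold changes in a narrow range, from -0.28 to -0.43 on the log2 scale.

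Acad11 (Gene ID 102632, chromosome 9, 104063724 to 104127656), a dehydrogenase of the same family that has been placed in peroxisomes as well as mitochondria, showed the largest change among these enzymes. Its static libraries held 101, 46.3, 119.7 and 95.2 CPM and its shear stress libraries 49.1, 30.0, 59.1 and 50.5 CPM. Number 2 was lowest in both groups, and its static library lay within the shear stress range. The 1.92-fold fall (-0.94 ± 0.29, adjusted p = 0.0258) was lost when any of static libraries 1, 3 and 4 or stressed libraries 1, 2 and 4 was removed (adjusted p up to 0.0709), while the block gave an adjusted p of 3.41e-05. Acad11 spans 28962 bases of the antiparallel gene Ackr4, which had too few counts to be tested.

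The mitochondrial trifunctional protein joins the hydratase, dehydrogenase and thiolase steps for long chains in a complex of alpha subunits from Hadha and beta subunits from Hadhb. Neither subunit gene was called without the block. Hadha (Gene ID 97212) was at 155, 169, 255 and 202 CPM in static and at 145, 139, 188 and 171 CPM in stressed libraries (-0.28 ± 0.17, adjusted p = 0.186). Hadhb (Gene ID 231086) was at 102, 97.9, 150.3 and 128 CPM and at 89.9, 77.5, 106 and 93.3 CPM (-0.39 ± 0.15, adjusted p = 0.059). Each was lower under shear stress in all 4 numbers and was called with the block (adjusted p = 0.0128 and 0.00278). The TPM ratio of Hadha to Hadhb was 1.09, 1.25, 1.23 and 1.14 in static and 1.16, 1.29, 1.28 and 1.32 in stressed libraries. It was higher under shear stress in all 4 numbers, with overlapping groups, and was not tested.

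These genes lie head to head, and the 272 bases between their RefSeq starts serve as the upstream region of both. This interval is shown because it lies before the starts of both subunit genes. It is chr5:30154981-30155252 of GRCm38.p6, given on the plus strand, so that Hadha starts to the left and runs away to the left, and Hadhb starts to the right. Capitals mark GGGCGG, the GC box letters searched on both strands (also as CCGCCC), found 2 times here. At least 1 such match was held by 60.5% of the 272-base promoter windows of tested genes. Those windows ended 50 bases after the start, whereas this interval lies wholly before both starts.
Hadha to Hadhb: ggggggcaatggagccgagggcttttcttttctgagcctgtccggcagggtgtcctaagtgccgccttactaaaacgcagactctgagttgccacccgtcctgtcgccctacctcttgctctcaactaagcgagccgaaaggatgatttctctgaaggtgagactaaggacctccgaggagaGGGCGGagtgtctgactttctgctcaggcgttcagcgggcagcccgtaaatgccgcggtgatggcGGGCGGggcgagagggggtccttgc

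Acaa2, the mitochondrial thiolase that releases acetyl-CoA, was the most abundant enzyme of the spiral at 205 ± 42.3 TPM in static libraries. Its libraries held 166, 181, 269 and 199.9 CPM in static and 125, 109.7, 181 and 124.5 CPM under shear stress. Only the shear stress library of number 3 reached the static range. The call of this 1.51-fold fall (-0.59 ± 0.19, adjusted p = 0.0277) was lost on removal of static library 3 or of stressed library 1, 2 or 4 (adjusted p up to 0.0734). With the block its adjusted p was 0.000124. The auxiliary enzymes that deal with double bonds were not called by the unblocked fit: Eci1, an enoyl-CoA isomerase, was at 52.1 ± 7.54 and 41.2 ± 5.14 CPM (adjusted p = 0.0564, and 0.00782 with the block), and Decr1, a dienoyl-CoA reductase, at 34.8 ± 8.06 and 33.1 ± 5.92 CPM (adjusted p = 0.774). Hadh, the dehydrogenase for shorter chains, was at 62.5 ± 9.85 and 57.7 ± 5.85 CPM (adjusted p = 0.481), and its change had the opposite sign with library totals or upper quartile factors, as did that of Decr1.

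Electrons from the acyl-CoA dehydrogenases pass to the electron transfer flavoprotein, a dimer of the Etfa and Etfb products, and on through the Etfdh product to ubiquinone. Etfa (Gene ID 110842, chromosome 9, 55454436 to 55512243) was the most even member of all in normalised CPM. It was at 114.5, 119.9, 114.8 and 117 CPM in static and at 82.5, 84.4, 81.9 and 84.7 CPM in shear stress libraries. The groups were far apart against a spread of 2.46 and 1.41 CPM (SD), and the 1.40-fold fall (-0.48 ± 0.07, adjusted p = 0.000655) held in all 8 fits that left out a library. In TPM it was less even, at 121 ± 10.1 in static and 101 ± 6.96 in shear stress libraries. With limma on log2(TPM + 1) its adjusted p was 0.067.

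Etfdh (Gene ID 66841, chromosome 3, 79603788 to 79628767) fell 1.63-fold, with 78.0, 69.3, 107 and 95.2 CPM in static and 51.0, 36.6, 66.4 and 60.5 CPM in stressed libraries (-0.70 ± 0.20, adjusted p = 0.0156). No static library was as low as the highest shear stress library. Etfb, the partner of Etfa in the dimer, was at 67.8, 49.7, 78.8 and 64.2 CPM in static and at 55.3, 48.4, 55.6 and 48.6 CPM under stress, and was not called (adjusted p = 0.0743, and 0.0176 with the block). Of its spread, 45.0% lay between numbers, against 0.843% for Etfa. The TPM ratio of Etfa to Etfb was accordingly 1.27 in static number 2 and 0.770 in static number 3. All 3 of these electron transfer genes were lower with the block. The ends of Etfdh and the neighbouring gene Ppid overlap by 23 bases in RefSeq.

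**Figure D2:**
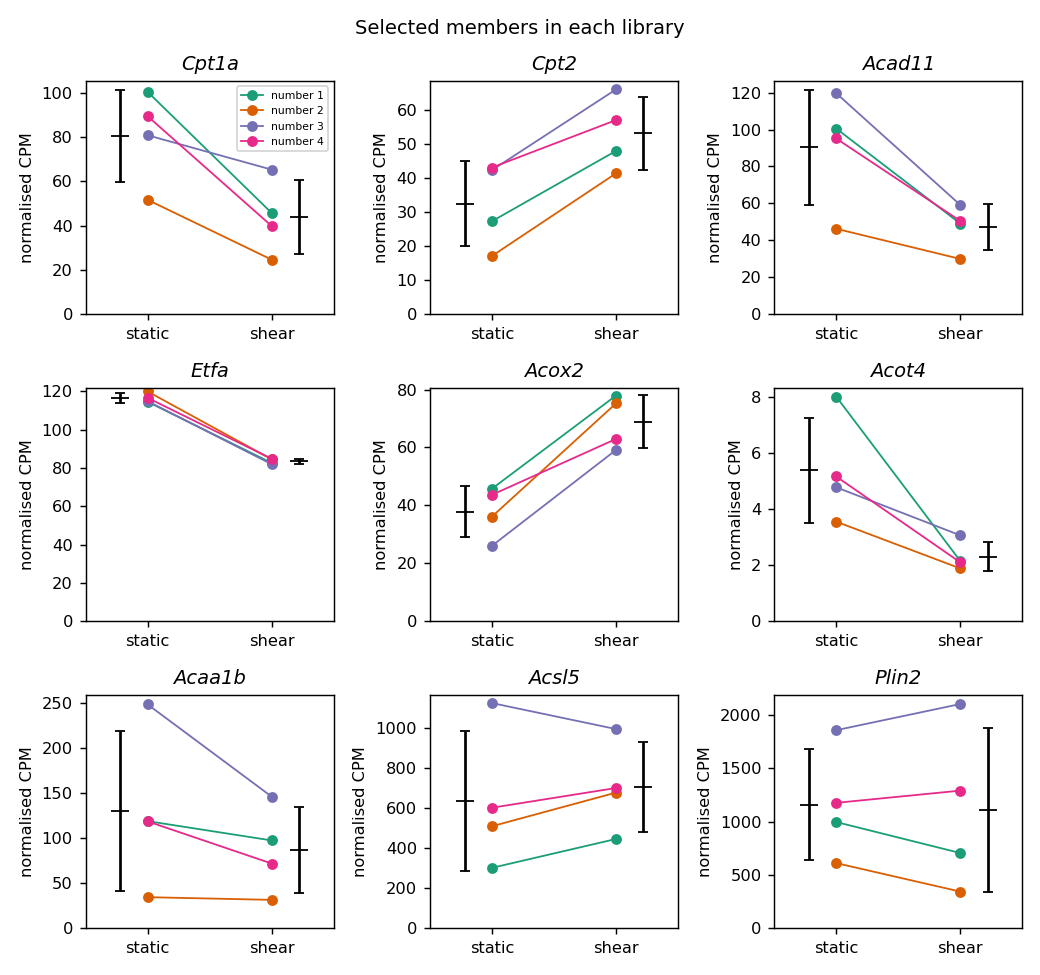
Normalised CPM of 9 members in each library, with lines joining the static and shear stress libraries of the same replicate number and black bars giving the mean ± SD of each group (n = 4). The genes were picked after their values were seen. Etfa lies at 114.5 to 119.9 CPM in static and 81.9 to 84.7 CPM in shear stress libraries, while Acaa1b, Acsl5 and Plin2 keep nearly the same order of numbers in both groups.

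Among the 7 peroxisomal members, 1 rose, 1 fell and 5 were not called, and with the block 1 rose and 5 fell. Acox2 (Gene ID 93732, chromosome 14, 8225511 to 8259019), the oxidase for branched chains and bile acid intermediates, was at 45.7, 36.1, 26.0 and 43.6 CPM in static and at 77.9, 75.2, 59.1 and 63.0 CPM in shear stress libraries. All shear stress libraries lay above all static ones, and the 1.82-fold rise (0.86 ± 0.18, adjusted p = 0.00344) was called under every scaling listed in the closing section and on removal of any of the 8 libraries. Ehhadh (Gene ID 74147, chromosome 16, 21761285 to 21787834), whose product is a bifunctional enzyme of peroxisomal oxidation, moved the other way. It was at 51.2, 40.3, 71.9 and 52.3 CPM in static and at 41.0, 26.8, 30.9 and 29.4 CPM in shear stress libraries, a 1.68-fold fall (-0.75 ± 0.19, adjusted p = 0.00967). Only number 1 of the shear stress libraries reached above the lowest static library. The TPM ratio of Acox2 to Ehhadh ranged from 0.429 to 1.07 in static libraries, and under shear stress it ranged from 2.25 to 3.36.

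Acaa1a and Acaa1b are close copies that encode peroxisomal thiolases. In the annotation, 34.0% of the 50-base words of the Acaa1a transcript also occur in Acaa1b, so that the division of reads between them is uncertain. Acaa1a was at 58.8 ± 10.3 and 49.1 ± 6.11 CPM (adjusted p = 0.162, and 0.0439 with the block). Acaa1b was at 119, 34.2, 249 and 119 CPM in static and at 97.3, 31.2, 146 and 71.6 CPM in stressed libraries (-0.59 ± 0.59, adjusted p = 0.438, and 0.00443 with the block). The copies behaved differently across numbers: the TPM ratio of Acaa1b to Acaa1a was 0.805 in static and 0.760 in shear stress number 2, and 3.98 and 3.36 in number 3. With the counts of both copies summed, the change was -0.48 ± 0.41 (adjusted p = 0.36).

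The 100 bases before the start that the RefSeq promoter table uses for each copy are shown because the copies share much of the transcript but differed in their spread between numbers. For Acaa1a that start lies inside the annotated gene, whose first base is 119341028, so the stretch shown is not upstream of the whole gene. Neither stretch holds the DR1 motif described below.
Acaa1a (chr9:119341194-119341293, plus strand): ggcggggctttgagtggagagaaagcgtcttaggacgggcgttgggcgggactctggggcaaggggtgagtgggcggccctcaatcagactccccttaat
Acaa1b (chr9:119157094-119157193, minus strand): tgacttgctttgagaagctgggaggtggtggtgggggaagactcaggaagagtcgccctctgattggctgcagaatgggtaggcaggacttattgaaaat

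The other peroxisomal genes were not called by the unblocked fit. Eci2, an enoyl-CoA isomerase, held 122 CPM in the static library of number 3 and between 37.8 and 49.7 CPM in the other static libraries, against 34.6 ± 6.58 CPM under shear stress (adjusted p = 0.064, and 0.0179 with the block). Its log2 fold change was -0.89 with all libraries and -0.38 without static library 3. Crot, the carnitine octanoyltransferase that exports medium chains from peroxisomes, was at 127 ± 30.3 and 88.7 ± 31.3 CPM (adjusted p = 0.132, and 0.000434 with the block). Decr2, the peroxisomal dienoyl-CoA reductase, was at 13.1 ± 3.49 and 13.0 ± 1.35 CPM (adjusted p = 0.976).

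None of the 4 long-chain acyl-CoA synthetases was called, and Acsl4 alone of them was lower with the block (adjusted p = 0.00994). Acsl5 (Gene ID 433256, chromosome 19, 55251861 to 55296628) supplied most of their transcripts, 82.3% ± 8.53 of the summed TPM in static and 86.3% ± 5.5 in shear stress libraries. It was at 299.8, 507, 1123 and 600.0 CPM in static and at 444, 676, 993 and 699 CPM in stressed libraries (0.15 ± 0.39, adjusted p = 0.767). The spread between numbers was much wider than any difference between groups. Acsl1, the main synthetase of liver in textbooks, took 6.81% ± 2.22 and 5.45% ± 1.13 of the summed TPM, at 68.7 ± 10.1 and 64.0 ± 4.24 CPM (adjusted p = 0.486). Acsl4, which prefers arachidonic acid, was at 102 ± 22.7 and 78.9 ± 20.5 CPM (adjusted p = 0.162). Acsl3, a synthetase of the endoplasmic reticulum and lipid droplets, was at 26.8 ± 8.84 and 31.6 ± 7.32 CPM (adjusted p = 0.446).

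The 4 thioesterases Acot1 to Acot4 lie in a cluster on chromosome 12 and were the least abundant enzymes, at most 6.57 ± 5.91 TPM in static libraries (Acot2). Acot4 (Gene ID 171282, chromosome 12, 84037254 to 84044723), a peroxisomal enzyme that acts on succinyl-CoA and glutaryl-CoA, had the largest fall of all members. It was at 8.01, 3.55, 4.78 and 5.16 CPM in static and at 2.14, 1.88, 3.06 and 2.10 CPM in shear stress libraries. The groups did not overlap, and the 2.34-fold fall (-1.23 ± 0.28, adjusted p = 0.00605) rested on between 36 and 130 counts per library. At most 1.97% of the 50-base words of its transcript occur in another member of the cluster.

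The cytosolic Acot1 and mitochondrial Acot2 share more, 23.7% of the words of Acot1, so their levels are uncertain. Acot2 was at 9.55, 1.28, 23.9 and 7.5 CPM in static and 9.84, 3.29, 9.93 and 4.75 CPM in stressed libraries (adjusted p = 0.515). Acot1 was at 2.90 ± 1.34 and 1.47 ± 1.11 CPM (adjusted p = 0.163, and 0.0123 with the block), with its highest library in number 2 of each group, where Acot2 was lowest. Acot3 had at most 4 counts in any library and was not tested. With the counts of the cluster summed, the change was -0.81 ± 0.35 (adjusted p = 0.0812), which was not called.

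Bdh1, which turns acetoacetate into the ketone body beta-hydroxybutyrate, was the only ketone body enzyme in the set. It was at 26.7, 5.47, 17.4 and 19.4 CPM in static and at 19.9, 5.43, 16.3 and 8.44 CPM in stressed libraries. Number 2 was lowest in both groups, each number was lower under shear stress, and the change of -0.46 ± 0.51 was not called (adjusted p = 0.483, and 0.0694 with the block).

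The 2 most abundant members were the fatty acid binding protein gene Fabp1, at 1467 ± 396 TPM in static and 1301 ± 392 TPM in shear stress libraries, and the lipid droplet coat gene Plin2, at 875 ± 367 and 992 ± 703 TPM. Fabp1 was at 305, 153, 325 and 337 CPM in static and 306, 122, 214 and 223 CPM in stressed libraries (-0.37 ± 0.31, adjusted p = 0.343, and 0.00995 with the block). Plin2 was at 996, 609.5, 1859 and 1176 CPM and at 704, 341, 2105 and 1291 CPM (-0.06 ± 0.53, adjusted p = 0.931). It was lower under shear stress in numbers 1 and 2 and higher in numbers 3 and 4. Cd36, a fatty acid receptor also found on macrophages and endothelium, was low at 3.91 ± 1.94 and 2.74 ± 1.5 CPM (adjusted p = 0.433, and 0.0385 with the block). Of 8 macrophage markers in the files, 7 averaged at most 3 counts per library, and the endothelial markers summed to between 5.66 and 17.4 TPM. Their part in the level of Cd36 was not tested.

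The largest share of the members' spread lay between replicate numbers rather than between conditions. Of each gene's sum of squares in log2 CPM over the 8 libraries, a median of 54.9% lay between numbers and 33.8% between groups for the 35 members, against 27.3% and 53.8% for all tested genes. The share between numbers exceeded that between groups for 22 of 35 members (62.9%), against 38.8% of all tested genes. Number 2 was the lowest in both groups for 23 members (65.7%), against 11.8% of all tested genes, and number 3 the highest in both for 16 (45.7%), against 12.8%. These summaries were chosen after the values by number had been seen. They describe genes that vary together within the same libraries and carry no test.

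The widest spreads between numbers were those of Acot2 (7.12-fold from the lowest to the highest number, averaged over both groups on the log2 scale), Acaa1b (5.82-fold), Plin2 (4.34-fold), Bdh1 (4.16-fold) and Cd36 (4.14-fold). Etfa, at the other end, differed by 1.04-fold between numbers. The hepatocyte markers, in a sum made up mostly of Alb, were not lowest in number 2 (69910 TPM static, 55265 TPM under stress). Their lowest sums were in number 4 of the static and number 1 of the stressed libraries. They were highest in number 3 in both groups (71775 and 61508 TPM). The cholangiocyte sum given above was lowest in number 2 and highest in number 1 in both groups. The adipocyte list, at 20.4, 68.0, 268 and 76.4 TPM and at 22.6, 66.0, 353 and 79.7 TPM, was lowest in number 1 and highest in number 3 in both groups. Adipoq, Lep and Plin1, its defining genes, each averaged at most 3 counts per library, so that its sum came from Fabp4 and Cidec. The part of these marker genes in the members' spread was not tested. Stellate cell markers summed to 1.99 to 6.5 TPM and macrophage markers to 25.0 to 78.8 TPM over the 8 libraries.

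**Figure D3:**
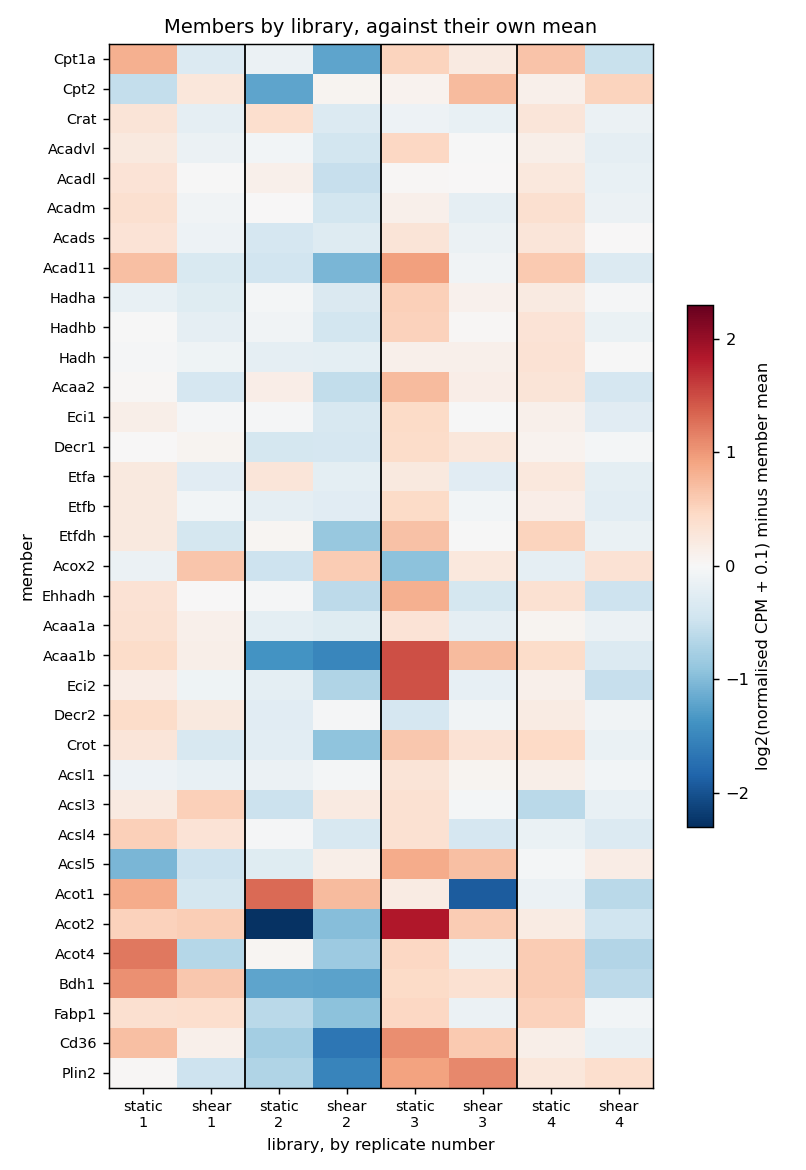
Each tested member (rows) in each library (columns, static and shear stress side by side for each replicate number), as log2(normalised CPM + 0.1) minus the member's mean over the 8 libraries. Many cells are blue at number 2 and red at number 3, which were the lowest number in both groups for 23 and the highest in both for 16 of the 35 members.

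**Figure D4:**
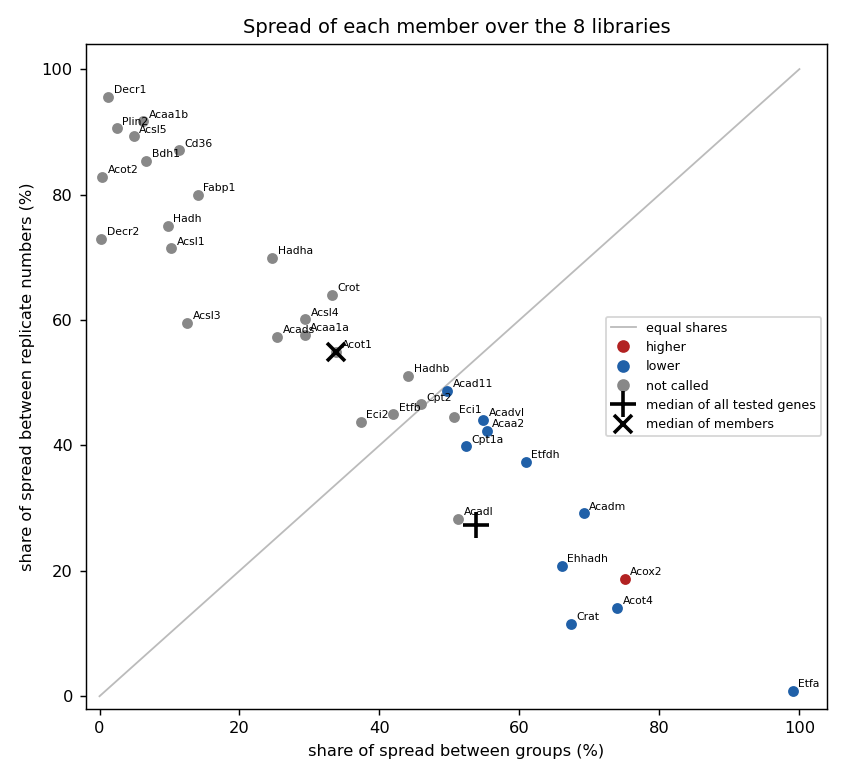
Share of each member's spread between groups (horizontal axis, percent) and between replicate numbers (vertical axis, percent), coloured by the call of the unblocked test. The median of the members lies at 33.8% and 54.9% and the median of all tested genes at 53.8% and 27.3%, and Etfa is the point farthest to the lower right.

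A direct repeat of AGGTCA spaced by 1 base, DR1, is recognised by nuclear receptors that govern hepatocyte lipid genes. AGGTCA, any base (N) and AGGTCA again were searched as a single motif on both strands, with at most 2 mismatches, in RefSeq windows from 250 bases before to 50 after the start that the promoter table uses for a gene. Windows were found for 33 of the 36 members (not for Crat, Acaa2 and Decr1). A match was present in 6 of the 33 (18.2%: Etfa, Acox2, Acot4, Fabp1, Cd36 and Plin2), against 3.88% of 9486 tested genes with a window. Of these 6 genes, Acox2 was higher, Etfa and Acot4 were lower, and 3 were not called. This motif and the GC box were searched after the members' values were known, CCAAT and TATAAA were also looked at, and the 4 promoters printed below were chosen because they hold a match. A match is a stretch of letters in this window and not a measured binding site.

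The 100 bases before the start used by the promoter table are shown for the 4 members whose match lies there. They set genes with a called fall (Etfa, Acot4) beside genes with most of their spread between numbers (Fabp1, Cd36). For Acot4 and Cd36 the start used lies inside the annotated gene (Cd36 spans 17781690 to 17888959 on chromosome 5), so these stretches lie within the gene and before an internal start. Capitals mark the match, which in all 4 is on the strand opposite to the gene and therefore reads as TGACCT, any base and TGACCT, with mismatches. Fabp1 has 1 mismatch and the others have 2.
Etfa (chr9:55512244-55512343, minus strand): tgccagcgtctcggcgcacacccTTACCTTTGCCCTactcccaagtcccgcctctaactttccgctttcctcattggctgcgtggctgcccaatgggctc
Acot4 (chr12:84038279-84038378, plus strand): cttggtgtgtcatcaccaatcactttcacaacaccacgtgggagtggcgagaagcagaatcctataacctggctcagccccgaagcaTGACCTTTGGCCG
Fabp1 (chr6:71199779-71199878, plus strand): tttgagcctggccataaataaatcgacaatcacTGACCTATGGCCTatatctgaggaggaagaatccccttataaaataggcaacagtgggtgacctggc
Cd36 (chr5:17835897-17835996, minus strand): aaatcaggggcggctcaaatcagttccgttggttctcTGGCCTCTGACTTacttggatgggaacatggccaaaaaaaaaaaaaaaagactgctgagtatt

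Other genes of these pathways gave a mixed picture, and up to 3 called genes of each list are named by smallest p. Of 12 other mitochondrial genes, 3 fell and 1 rose. Acad9, which encodes a dehydrogenase needed to assemble respiratory complex I, rose 1.70-fold (adjusted p = 0.00192). Slc22a5, the gene of the plasma membrane carnitine transporter, fell 1.55-fold (adjusted p = 0.00682), and Etfbkmt, whose product methylates the ETFB protein, fell 2.46-fold (adjusted p = 0.0378).

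Of 14 other peroxisomal genes, 5 fell and 2 rose. Acox3, for branched chains, fell 1.37-fold (adjusted p = 0.00807), and Nudt7, the gene of a peroxisomal coenzyme A hydrolase, rose 2.24-fold (adjusted p = 0.00449).

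Of 10 other acyl-CoA synthetases, 5 fell and 1 rose. Slc27a5, whose product joins bile acids to coenzyme A, fell 1.69-fold (adjusted p = 0.000468), and Acsm3, for medium chains, fell 1.88-fold (adjusted p = 0.00372). Slc27a1, the gene of a fatty acid transport protein with synthetase activity, rose 3.09-fold (adjusted p = 6.15e-05). Of 6 other thioesterases, the mitochondrial Acot9 fell 1.42-fold (adjusted p = 0.00104), while Acot7 rose 1.51-fold (adjusted p = 0.0118) and Acot6, a gene at 0.369 ± 0.266 CPM in static libraries, rose 2.78-fold (adjusted p = 0.0384).

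Of 6 other ketone body genes, 2 rose. Acat1, the gene of the thiolase at the start of the pathway, rose 1.45-fold (adjusted p = 0.0183). Slc16a6, the gene of a ketone body exporter, rose 5.87-fold, from 7.54 ± 3.78 to 44.3 ± 23.2 CPM (adjusted p = 0.00531).

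Of 15 regulators, 5 fell and 2 rose. Ppara encodes the nuclear receptor that drives fatty acid oxidation genes in liver, and Ppargc1a a coactivator of it. Ppara was at 15.2, 11.3, 14.8 and 21.8 CPM in static and at 26.4, 20.3, 30.6 and 25.7 CPM in stressed libraries, a 1.63-fold rise (0.71 ± 0.20, adjusted p = 0.0163) with an overlap at static number 4. Ppargc1a was at 1.91, 3.43, 5.23 and 1.68 CPM and at 1.04, 0.626, 0.981 and 0.736 CPM, a 3.58-fold fall without overlap (-1.84 ± 0.41, adjusted p = 0.00479). The deacetylase gene Sirt1 fell 2.24-fold (adjusted p = 0.000478), the corepressor gene Ncor1 fell 1.71-fold (adjusted p = 0.000834), and Ppard, for another receptor of the PPAR family, rose 2.13-fold (adjusted p = 0.000756).

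Of 10 other PPAR-alpha target genes, 1 fell and 2 rose, and with the block 7 fell and 2 rose. Angptl4, whose product inhibits lipoprotein lipase, rose 3.23-fold (adjusted p = 0.00153), and Ucp2, for a carrier of the inner mitochondrial membrane, rose 2.92-fold (adjusted p = 0.0144). Vnn1, the pantetheinase gene, fell 1.5-fold (adjusted p = 0.0378). Of 16 peroxisome assembly genes, 3 fell and 4 rose. Pex10 and Pex2, whose products belong to the ubiquitin ligase of the peroxisomal membrane, rose 5.08-fold and 1.74-fold (adjusted p = 0.000131 and 0.00083), and Pex6, for an ATPase that recycles the import receptor, fell 1.55-fold (adjusted p = 0.000582).

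Of 12 genes of lipid droplets and lipolysis, 2 fell and 2 rose. Pnpla2, the gene of the lipase that frees fatty acids from droplets, fell 2.47-fold from 180 ± 76.8 to 72.7 ± 29.3 CPM (adjusted p = 0.0109). G0s2, whose product inhibits that lipase, rose 13.4-fold from 4.43 ± 2.39 to 59.9 ± 19.2 CPM (adjusted p = 0.000206). The droplet coat gene Plin4 rose 5.59-fold (adjusted p = 0.0195), while Plin2 was not called. With library totals, 3 of the genes named from these lists were no longer called: Etfbkmt (adjusted p = 0.0789), Acox3 (adjusted p = 0.159) and Vnn1 (adjusted p = 0.193).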

How the data were processed

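RNA from 8 hepatocyte libraries (4 static, 4 shear stress) was compared. Per the submitters' processing notes, HISAT, Bowtie2 and RSEM were used with GRCm38 (mm10); for their versions, the annotation and strand use, the entry is: not given in the sources used here. The authors deposited expected counts, TPM and FPKM for 17276 genes, per the file headers; FPKM was not used. Expected counts totalled 15067056 to 17935566 in static and 16225843 to 16732203 in shear stress libraries, so that 3 counts equal 0.157 to 0.227 CPM. They were rounded and tested with edgeR 4.0.16 in R 4.3.3 (filterByExpr, TMM, glmQLFit robust, glmQLFTest, group only) over 11747 genes. Alternatives used DESeq2 1.42.0 and limma 3.58.1 on log2(TPM + 1) and log2(TPM + 0.1). On counts simulated for this comparison, over the same 11747 genes, the share recovered by edgeR was 18.3% for 1.5-fold, 59.5% for 2-fold and 87.9% for 4-fold changes. False calls made up 7.38%. The simulation changed 200 genes and set no effect of the replicate number, whereas 48.6% of all tested genes were called in the data. These shares may therefore not hold for the data.

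Same-numbered libraries correlated at r = 0.679, 0.642, 0.56 and 0.467 after removal of group means, and no other combination exceeded -0.0178. The spread between libraries, which may be technical, was estimated as a common BCV (the edgeR term, biological coefficient of variation) of 0.214. It fell to 0.125 in the blocked fit. Within groups every pair of libraries differed beyond sampling noise, the smallest chi-square over its degrees of freedom being 45.2. The members and lists were chosen with earlier results of these data known. All members were named, and of each list of other pathway genes up to 3 called genes with the smallest p, with Ppara and Ppargc1a in any case. Some genes that this rule picks are not reported here. Alternatives were other scalings, filters, tools, the block and the removal of each library. Fits without a number in both groups, the spread by number, some ratios and the motif searches were added after values were seen.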

Additional observations from a re-analysis of the deposited data

Results flagged for a closer look

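Of 70 groups of 4 libraries checked (35 members, static and shear stress), 4 held a library far from the other 3 by Dixon's criterion at 95%, and chance gives about 1 in 20. Acads was at 63.1 CPM in static replicate 2, against 100.1 to 102 CPM in the others. Eci2 was at 122 CPM in static replicate 3, against 37.8 to 49.7 CPM. Decr2 was at 15 CPM in shear stress replicate 1, against 12.2 to 12.7 CPM. Acsl4 was at 109.5 CPM in shear stress replicate 1, against 67.2 to 70.6 CPM.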

How the results depend on the processing

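The count of lower members was 10 and that of higher members 1. With library totals 4 were lower and 2 higher, with upper quartile factors 5 and 2, and with DESeq2 13 and 2. Limma on log2(TPM + 1) or log2(TPM + 0.1) gave 3 and 2. The replicate block, which the shared numbers of the libraries allow, gave 24 and 2. Over all 11747 tested genes, 2783 were lower and 2924 higher in the main fit. Library totals gave 1539 and 4157, upper quartile factors 1982 and 3652, and the block 3645 and 3531. DESeq2 gave 3326 and 3177 of 17276 genes. Limma gave 1184 and 3649 of 10589 genes on log2(TPM + 1), and 1178 and 3626 on log2(TPM + 0.1). Removing 1 library gave 6 (without shear stress replicate 4) to 16 (without static replicate 2) lower and 1 to 2 higher members. Over all tested genes, 2224 of 11894 and 2667 of 11912 were lower in the fits named. In fits added after seeing the data, removing number 1, 2, 3 or 4 from both groups gave 4, 10, 10 and 2 lower and 1, 2, 1 and 1 higher. Over all tested genes, 2016, 2122, 2399 and 2028 were then lower and 2368, 2444, 2509 and 2271 higher. RLE factors and both other filters on low counts kept the counts within 1.5 times. Of 740 alternative values of single members, 594 kept direction and call, 65 lost a call, 44 gained one and 37 changed sign, none of these 37 in a member called at first. The cause was not tested.

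The members that changed sign, none of them called, had these log2 fold changes. With library totals they were 0.108 for Hadh, 0.157 for Decr1, 0.213 for Decr2, 0.126 for Acsl1 and 0.159 for Plin2. With upper quartile factors they were 0.018, 0.066, 0.123, 0.035 and 0.069 in the same order. With limma on log2(TPM + 1) they were 0.117 for Hadh, 0.16 for Decr1, 0.226 for Decr2 and 0.122 for Acsl1. With limma on log2(TPM + 0.1) they were 0.119, 0.168, 0.25 and 0.127 in that order, and 0.076 for Acot2. Decr2 was at 0.019 with the replicate block, and at 0.102 and 0.083 without number 1 or 4 in both groups. Plin2 was at 0.06 and 0.047 without number 1 or 2 in both groups. Over removals of 1 library, values ranged from -0.201 to 0.071 for Decr1, from -0.127 to 0.148 for Decr2, from -0.085 to 0.58 for Acsl5, from -0.974 to 0.183 for Acot2 and from -0.574 to 0.257 for Plin2. The summed counts of Acot1 to Acot4 were not called, although Acot4 alone was. That sum also holds Acot2, at 6.57 TPM against 3.2 TPM for Acot4 in static libraries. It is therefore not a check of Acot4 by itself. Depth limits Acot3, with at most 4 counts per library. In counts simulated with 200 changed genes, 18.3% of 1.5-fold changes were recovered, a share that may not hold for the data.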
